A study of Mus musculus with 6 samples.

Results

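The complement set comprised 9 genes, selected by symbol out of 78298 genes in the deposited table: C3, C4b, C1ra, C1s1 and Cfb, which encode components of the cascade, and Serping1, Cd55, Cd59a and Cd46, which encode its regulators. Each symbol matched a single row, with a value in all 6 samples. RENCA is an established mouse renal adenocarcinoma line. The oe-AQP1 samples (n = 3) were RENCA cells that carried mouse Aqp1, the gene of a water channel, on a lentivirus with the ubiquitin C promoter, and the oe-NC samples (n = 3) carried the same vector without the insert. Selection in both groups began 48 h after transduction and used puromycin (2 μg/mL, 14 days), and all samples were labelled as 1 batch. The labels speak of stably transduced clones and do not say how many clones each line held, so a difference between the groups cannot be told apart from a difference between 2 selected lines. Expression was measured by RNA sequencing in expected read counts per gene.

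Complement is a cascade of plasma proteins that mark and lyse targets. In the classical pathway, C1r and C1s are proteases that ride on the recognition molecule C1q, and C1s cuts C4 and C2, whose fragments together form an enzyme that cuts C3. In the alternative pathway, factor B joins deposited C3b to form a second C3-cutting enzyme, so both routes meet at C3. Cells restrain the cascade with a soluble inhibitor of C1r and C1s (C1 inhibitor, from Serping1) and with membrane proteins. Some of these proteins limit the C3-cutting enzymes (CD55, CD46 and, in rodents, Crry from Cr1l), and CD59 blocks pore formation. The liver makes most circulating complement, but epithelial and renal tubule cells also transcribe many of these genes, and several are known to respond to interferon and inflammatory cytokines.

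The samples held 18385714.02 to 21920898.67 expected counts each. CPM are counts scaled to the library size times its TMM factor (0.993 to 1.01). Groups were compared by limma-voom over the 15522 genes kept by a low-count filter; log2FC is the log2 ratio of oe-AQP1 to oe-NC levels and FDR the Benjamini-Hochberg adjusted p. Aqp1 had 7713 to 8545 counts per oe-AQP1 sample, and the controls had 25 to 45. The oe-NC sample 1 stood apart from the other controls, with a chi-square of 9.46 and 11.0 per gene against samples 2 and 3, where all other pairs within a group gave 1.71 to 2.04. Calls of complement genes that changed without it are given beside their values. Cell type markers were read at an FDR under 0.05, where 16.0% of all genes tested were higher and 16.6% lower. Of 9 renal and epithelial markers, 7 were expressed, with Epcam and Umod at 0. Among these, 5 were lower in oe-AQP1 cells (Krt8, Krt18, Cdh1, Cdh16 and Lrp2), and Pax8 and Pax2 did not pass. The sum of the list was 798.8 to 831.2 CPM against 982.7 to 1087 CPM. Of 9 leukocyte markers, Csf1r and Lyz2 were lower, Adgre1 was at 0, and Ptprc, Itgam and Cd3e had at most 3 counts. Cd68 (log2FC = 0.15, FDR = 0.0764), Cd14 (log2FC = -0.16, FDR = 0.147) and Cd79a (log2FC = -0.34, FDR = 0.399) did not pass. Their list summed to 60.1 to 62.9 CPM against 70.7 to 72.2 CPM. Among 7 fibroblast markers, Pdgfrb was higher and Col1a1 lower (sum 56.6 to 58.8 against 51.7 to 65.7 CPM). None of 5 endothelial markers passed (sum 2.02 to 2.87 against 1.86 to 2.39 CPM, Kdr at 0), and all 5 hepatocyte markers stayed at or under 3 counts. The part of these shifts in the results was not tested. In bulk samples, fewer cells of a type and less RNA per cell cannot be told apart. The p-values measure the spread between these samples, which may be partly technical.

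Several genes of the set have a near-identical copy, and the expected counts of C4b, C1ra, C1s1 and Cd46 were fractional in all 6 samples, as those of Cfb were in 4, as happens where reads are divided among genes. C4b shared 28.6% of its 50-base stretches with its copy C4a, C1ra shared 42.9% with C1rb, and C1s1 shared 19.3% with C1s2. The coding sequences of C4b and C4a, from GENCODE M39 transcripts on GRCm39, were identical in 95.95% of 5214 aligned positions, with an unbroken identical run of 433 bases. The 60-base window with the most differences, bases 2705 to 2764 of the C4b coding sequence, is shown because only reads across such positions could tell the copies apart. Capitals mark the 13 bases that differ.
C4b: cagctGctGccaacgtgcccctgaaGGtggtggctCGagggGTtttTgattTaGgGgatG
C4a: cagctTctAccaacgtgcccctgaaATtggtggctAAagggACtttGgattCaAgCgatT

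Promoters of 6 of the 9 genes were present among RefSeq sequences on GRCm38.p6; there was no entry for C4b, Cfb or Serping1. The 250 bases before the start site are shown for C3, where the pathways meet, for C1ra, which rose, and for Cd59a, which fell, since the genes of the set did not move in one direction. Capitals mark the only match to the motifs searched on both strands, namely the interferon-stimulated response element (GAAA, any 2 bases, GAAA), the gamma-activated sequence (TTC, any 3 bases, GAA) and the NF-κB consensus.
C3, chr17:57228137-57228386, reverse strand: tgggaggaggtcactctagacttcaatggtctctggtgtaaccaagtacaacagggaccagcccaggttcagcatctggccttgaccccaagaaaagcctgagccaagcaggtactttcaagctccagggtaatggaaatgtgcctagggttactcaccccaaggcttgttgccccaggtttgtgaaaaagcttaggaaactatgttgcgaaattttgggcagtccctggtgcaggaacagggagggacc
C1ra, chr6:124512371-124512620, forward strand: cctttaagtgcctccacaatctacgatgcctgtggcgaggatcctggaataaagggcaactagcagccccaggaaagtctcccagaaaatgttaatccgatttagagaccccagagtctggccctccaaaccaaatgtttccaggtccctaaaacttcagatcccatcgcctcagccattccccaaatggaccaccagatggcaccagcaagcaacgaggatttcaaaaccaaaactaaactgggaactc
Cd59a, chr2:104095551-104095800, forward strand: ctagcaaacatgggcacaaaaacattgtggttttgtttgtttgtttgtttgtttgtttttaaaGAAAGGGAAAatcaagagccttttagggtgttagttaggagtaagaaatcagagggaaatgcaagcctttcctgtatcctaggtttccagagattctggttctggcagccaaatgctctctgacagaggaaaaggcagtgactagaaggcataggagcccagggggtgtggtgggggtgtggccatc

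The single match was GAAAGGGAAA in the Cd59a promoter, from 187 to 178 bases before the start site. Among all 32851 promoters, 2.98% held the response element, 7.02% the gamma-activated sequence and 3.90% the NF-κB consensus in windows of the same length. No match was found in the windows of C3, C1ra, C1s1, Cd55 or Cd46. A match is a description of letters and not a bound site.

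Comparing oe-AQP1 with oe-NC cells addressed which genes differ when Aqp1 is overexpressed. Within the complement set, C4b and Cfb rose by 8.60-fold and 7.87-fold, Serping1 by 1.87-fold and C1ra by 1.33-fold, while Cd59a fell to 0.767 of the control level. C3, C1s1 and Cd46 did not pass the test, and Cd55 was at the limit of detection. The low-count filter kept 8 of the 9 genes. Of these, 4 were higher and 1 lower at an FDR under 0.05, where 16.0% of all genes tested were higher and 16.6% lower (32.5% in either direction). With an absolute log2FC above 1 as well, 2 were higher and 0 lower, against 4.39% and 0.844% of all genes (5.23% in either direction). The median log2FC of the 8 was 0.42, beside 0.00 over all genes tested. The CPM of the groups did not overlap for 5 of the 8, against 47.3% of all genes tested. For any single gene an exact two-sided permutation test of 3 against 3 samples cannot give a p below 0.1, which C4b, Cfb, C1ra, Serping1 and Cd59a each reached.

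**Figure D1:**
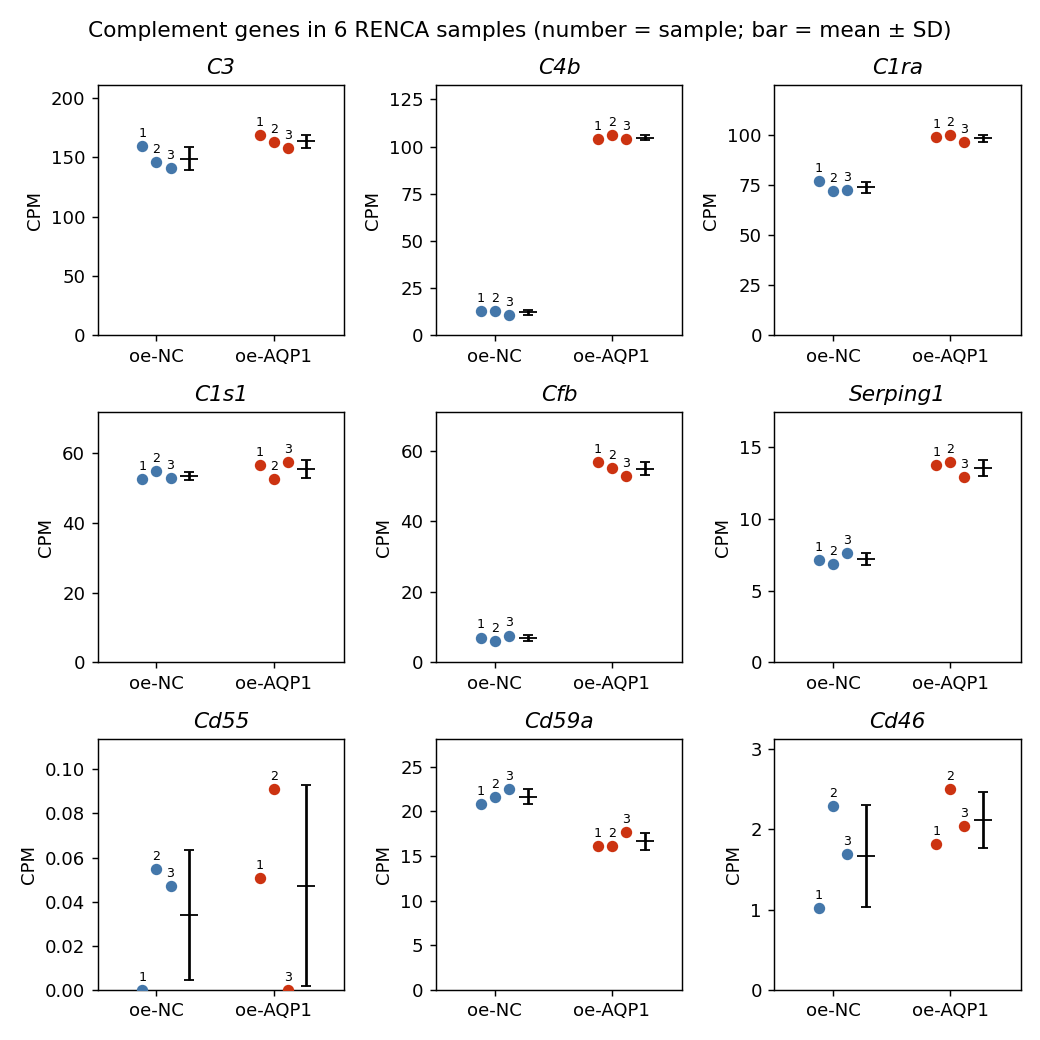
CPM of the 9 complement genes in each sample, with linear axes from 0; points are samples 1 to 3 of oe-NC (blue) and oe-AQP1 (red), and bars give the mean ± SD (n = 3). C4b and Cfb sit far above the controls in all oe-AQP1 samples, Serping1 and C1ra sit above without overlap, Cd59a sits below, and C3, C1s1, Cd46 and Cd55 overlap.

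C4b (ENSMUSG00000073418, chromosome 17, 34947354 to 34962912, reverse strand, GRCm39) encodes complement C4, the substrate of C1s and a subunit of the classical C3 convertase. It reached 104, 106 and 104 CPM in oe-AQP1 samples 1 to 3, against 13.0, 12.9 and 10.8 CPM in oe-NC samples 1 to 3. All oe-AQP1 samples were therefore several times above every control, and the groups were far apart relative to their spread (105 ± 1.28 and 12.3 ± 1.22 CPM, SD, n = 3). By limma-voom this was a log2FC of 3.10 with a standard error of 0.07 (FDR = 3.83e-10). The copy C4a, also called Slp, which does not replace C4 in the classical pathway, had 101 to 119 counts per oe-AQP1 sample against 27 to 36 in controls, a log2FC of 1.75 (FDR = 4.52e-05). With the counts of both copies summed, the log2FC was 3.00 (FDR = 4.57e-10), and C4b kept the larger part of the counts in every sample. Reads of C4b counted for C4a cannot be told apart here, so a separate rise of C4a was not tested.

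Cfb (ENSMUSG00000090231, chromosome 17, 35074852 to 35081559, reverse strand) encodes factor B, the protease subunit of the alternative C3 convertase. The oe-AQP1 samples had 56.8, 55.03 and 53.0 CPM and the oe-NC samples 7.08, 6.13 and 7.65 CPM. The lowest oe-AQP1 sample lay far above the highest control, and the log2FC was 2.98 (standard error 0.09, FDR = 2.96e-09). Exons of Nelfe on the opposite strand cover 1704 bases, or 49.8%, of the exon sequence of Cfb, and the counting is not stated to use strand, so reads from this stretch cannot be told apart. Nelfe, which encodes a subunit of the negative elongation factor, was itself lower in oe-AQP1 cells (62.7 ± 0.61 against 74.2 ± 6.82 CPM, SD, n = 3; log2FC = -0.24, FDR = 0.0153). A gene model on the same strand that joins C2 and Cfb, Gm20547, had 0 to 17 counts.

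C3 (ENSMUSG00000024164, chromosome 17, 57510964 to 57535155, reverse strand) encodes the central component that both convertases cut. Its mean level per merged exon length was the highest of the set in oe-NC cells and overlapped with that of C1ra in oe-AQP1 cells. Its level was 169, 163 and 158 CPM in oe-AQP1 samples and 160, 146 and 141 CPM in oe-NC samples. The control sample 1 lay within the range of the oe-AQP1 samples, so the groups overlapped, and the log2FC of 0.14 (95% interval 0.02 to 0.25, FDR = 0.0677) did not pass the test. Without oe-NC sample 1, which stood apart over all genes as well, the log2FC was 0.19 (FDR = 6.59e-05). The upper bound of the interval lay under the fold threshold.

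C1ra and C1s1 encode C1r and C1s, the proteases of the C1 complex, and lie near each other on chromosome 6. C1ra (ENSMUSG00000055172, 124489364 to 124500402, forward strand) had 98.8, 99.96 and 96.5 CPM in oe-AQP1 and 77.1, 72.0 and 72.5 CPM in oe-NC samples. The groups did not overlap, and the difference was small (log2FC = 0.41, standard error 0.04, FDR = 6.24e-05). C1s1 (ENSMUSG00000038521, 124507297 to 124559389, reverse strand) had 56.5, 52.6 and 57.4 CPM against 52.6, 54.8 and 52.8 CPM. Here the samples of both groups were interleaved, with a log2FC of 0.05 (95% interval -0.06 to 0.17, FDR = 0.456). With reads of the copies added, the log2FC was 0.42 (FDR = 5.57e-05) for C1ra with C1rb and 0.07 (FDR = 0.278) for C1s1 with C1s2.

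Among the regulators, Serping1 (ENSMUSG00000023224, chromosome 2, 84595705 to 84620873, reverse strand) encodes C1 inhibitor, the serpin that inactivates C1r and C1s. It had 13.8, 14.0 and 12.9 CPM in oe-AQP1 samples, against 7.13, 6.84 and 7.65 CPM in oe-NC samples. Every oe-AQP1 sample was higher than every control. The log2FC of 0.91 (standard error 0.09, FDR = 3.26e-05) stayed under the fold threshold, with a 95% interval of 0.7092 to 1.1031 that included it.

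Cd59a (ENSMUSG00000032679, chromosome 2, 103926132 to 103947029, forward strand), which encodes the membrane inhibitor of the lytic pore, was the only gene of the set that fell. The oe-AQP1 samples had 16.1, 16.1 and 17.7 CPM and the oe-NC samples 20.8, 21.6 and 22.5 CPM. The groups did not overlap (log2FC = -0.38, standard error 0.07, FDR = 0.00211). Its copy Cd59b had at most 1 count in any sample.

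Cd46 and Cd55 encode membrane cofactor protein and decay accelerating factor, which limit the C3 convertases. Cd46 (ENSMUSG00000016493, chromosome 1, 194719134 to 194774561, reverse strand) had 1.82, 2.50 and 2.04 CPM in oe-AQP1 and 1.02, 2.30 and 1.69 CPM in oe-NC samples. These were 20 to 55 counts per sample, the groups overlapped, and the log2FC of 0.42 had a 95% interval from -0.20 to 1.04 (FDR = 0.279). Cd55 (ENSMUSG00000026399, chromosome 1, 130366469 to 130390926, reverse strand) had 1, 2 and 0 counts in oe-AQP1 and 0, 1 and 1 counts in oe-NC samples, and was not tested. A count of 0 allows up to 3 counts, or 0.136 to 0.164 CPM depending on the sample, counting error only. A difference in Cd55 was not detectable at this depth, and its copy Cd55b had no count.

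Levels of different genes were set side by side as CPM per kilobase of merged exon length. In oe-NC cells the order was C3 (28.7 ± 1.86, SD, n = 3), C1ra (23.2 ± 0.89), C1s1 (15.4 ± 0.35), Cd59a (3.44 ± 0.13), Serping1 (2.37 ± 0.14), Cfb (2.03 ± 0.22), C4b (2.02 ± 0.20), Cd46 (0.219 ± 0.08) and Cd55. Only Cfb and C4b overlapped as neighbours in that order. In oe-AQP1 cells C4b (17.3 ± 0.21) and Cfb (16.1 ± 0.55) had moved up beside C1s1 (16.0 ± 0.74), under C3 (31.5 ± 1.04) and C1ra (30.9 ± 0.56). There C3 overlapped with C1ra, and Cfb with C1s1. Serping1 (4.46 ± 0.18) now lay above Cd59a (2.65 ± 0.15), the reverse of their order in control cells. With the longest transcript as length, C1ra (33.0) lay above C3 (31.6) and C1s1 (17.6) above Cfb (16.4) in oe-AQP1 cells, and Serping1 (5.70) again lay above Cd59a (4.25).

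Summed per length, the 5 component genes reached 114, 112 and 110 CPM per kilobase in oe-AQP1 samples, against 74.4, 70.4 and 69.2 in oe-NC samples, a ratio of means of 1.57. The 4 regulator genes summed to 7.34, 7.50 and 7.35 against 5.80, 6.003 and 6.32 CPM per kilobase, a ratio of 1.22. Component transcripts thus exceeded regulator transcripts of the set in every sample, although the set leaves out the regulators Cr1l and Clu. Clu alone had 37.6 CPM per kilobase in oe-NC and 31.3 in oe-AQP1 cells. With longest transcript lengths, Clu (97.7) lay above the component sum (74.75) in oe-NC cells and below it in oe-AQP1 cells (81.2 against 117.5). The order of the sums thus holds for the chosen set only. Within the component sum, C4b went from 2.83% ± 0.23 to 15.5% ± 0.33 (SD, n = 3) and Cfb from 2.85% ± 0.35 to 14.4% ± 0.26. The share of C3 was 40.2% ± 1.06 in oe-NC and 28.2% ± 0.47 in oe-AQP1 cells. These are levels of RNA, and neither protein nor deposition of complement was measured here.

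**Figure D2:**
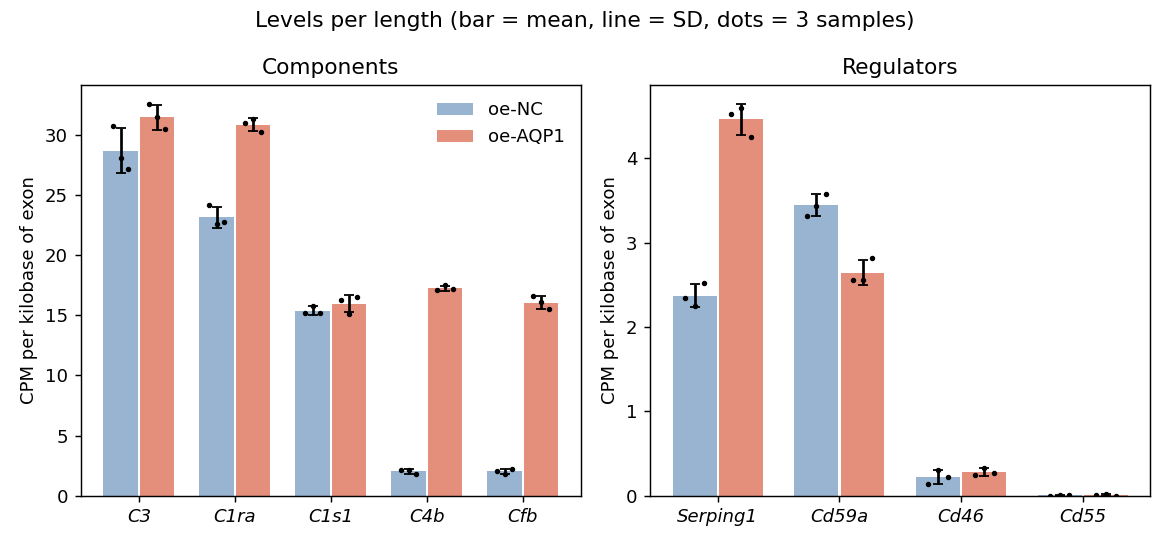
Level of each gene in CPM per kilobase of merged exon length, with components on the left and regulators on the right; bars are means, lines the SD and dots the 3 samples of oe-NC (blue) and oe-AQP1 (red). C4b and Cfb go from about 2.0 to beside C1s1 at 16.0, and Serping1 and Cd59a change places.

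The rest of the complement system was described through a list of 53 further genes. Of these, 18 passed the low-count filter, and 3 were higher and 2 lower at an FDR under 0.05, with a median log2FC of 0.08 over the 18. These 5 of 18 lay near the 32.5% called in either direction over all genes tested (16.0% higher and 16.6% lower), so by this count the wider list did not stand out. With an absolute log2FC above 1 as well, 3 of the 18 were higher (C2, C4a and Csmd2) and 0 lower. Over all genes tested these shares were 4.39% and 0.844%. C2 and the C4b copy C4a were both higher, and the counts of C4a may hold reads of C4b. C2 encodes the protease subunit of the classical C3 convertase and had 117, 112 and 108 CPM in oe-AQP1 samples against 39.7, 36.7 and 35.4 CPM in the controls. This difference (log2FC = 1.59, standard error 0.06, FDR = 9.48e-09) was smaller than that of C4b or Cfb in fitted size, and the gap was not tested, and C4a is described above. Among 5 initiating proteases of the list, among them Masp1, Masp2 and the copies C1rb and C1s2, none passed limma-voom at an FDR under 0.05, while 2 (Masp1 and C1s2) had an unadjusted p under 0.05 and 1 (Masp1) passed with edgeR. C1rb had 11 to 32 counts (log2FC = 0.60, FDR = 0.218) and C1s2 had 86 to 130 counts (log2FC = 0.28, FDR = 0.0827). C1rb passed when oe-NC sample 3 was left out (log2FC = 1.05, FDR = 0.0373). Without oe-NC sample 1, C1rl passed with a log2FC of 0.26 (FDR = 0.0126, against 0.17 and FDR = 0.218 with it) and Masp1 with a log2FC of -0.15 (FDR = 0.026, against FDR = 0.051 with it).

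Membrane and soluble regulators outside the set moved in both directions. Cr1l, the gene of Crry, a main brake on C3 convertases in rodent cells, had 103, 102 and 102 CPM in oe-AQP1 against 107, 119 and 125 CPM in oe-NC samples. All oe-AQP1 samples were lower, by little (log2FC = -0.19, FDR = 0.0274), and the call was lost when any sample other than oe-NC sample 1 was left out (FDR = 0.0767 to 0.0915). Clu, which encodes clusterin, a soluble inhibitor of the terminal complex, fell from 212 ± 13.3 to 176 ± 1.54 CPM (SD, n = 3; log2FC = -0.26, FDR = 0.00187). Csmd2, a membrane protein with complement control domains, rose at 18 to 25 against 8 to 9 counts (log2FC = 1.18, FDR = 0.0095), and did not pass with DESeq2 (FDR = 0.0594). Calr, which encodes the chaperone and C1q-binding protein calreticulin, was the most abundant gene of the list at 975 ± 8.57 and 930 ± 20.4 CPM (SD, n = 3; log2FC = 0.07, FDR = 0.109), and it passed without oe-NC sample 1 at a log2FC of 0.08 (FDR = 0.000136).

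Recognition molecules and terminal components had few counts. C1qa, C1qb and C1qc had no count in any sample, and of the 10 recognition molecules listed only Colec12 was tested. None of the 7 terminal components, from Hc (C5) to C9, passed the filter, with at most 13 counts in any sample. The regulatory protease Cfi and the protease Cfd had at most 1 count, and the receptors C3ar1 and C5ar1 at most 3. C7, a subunit of the lytic pore, had 4, 3 and 3 counts in oe-AQP1 samples and 0, 0 and 1 in the controls, which did not overlap. It was left out by the low-count filter and passed the same test without that filter (FDR = 0.0165). A count of 0 allows up to 3 counts, so these values lie near the floor and the call rests on few reads. Colec12 did not pass limma-voom (log2FC = 0.79, FDR = 0.128), and for the remaining genes named here the filter left no test.

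**Figure D3:**
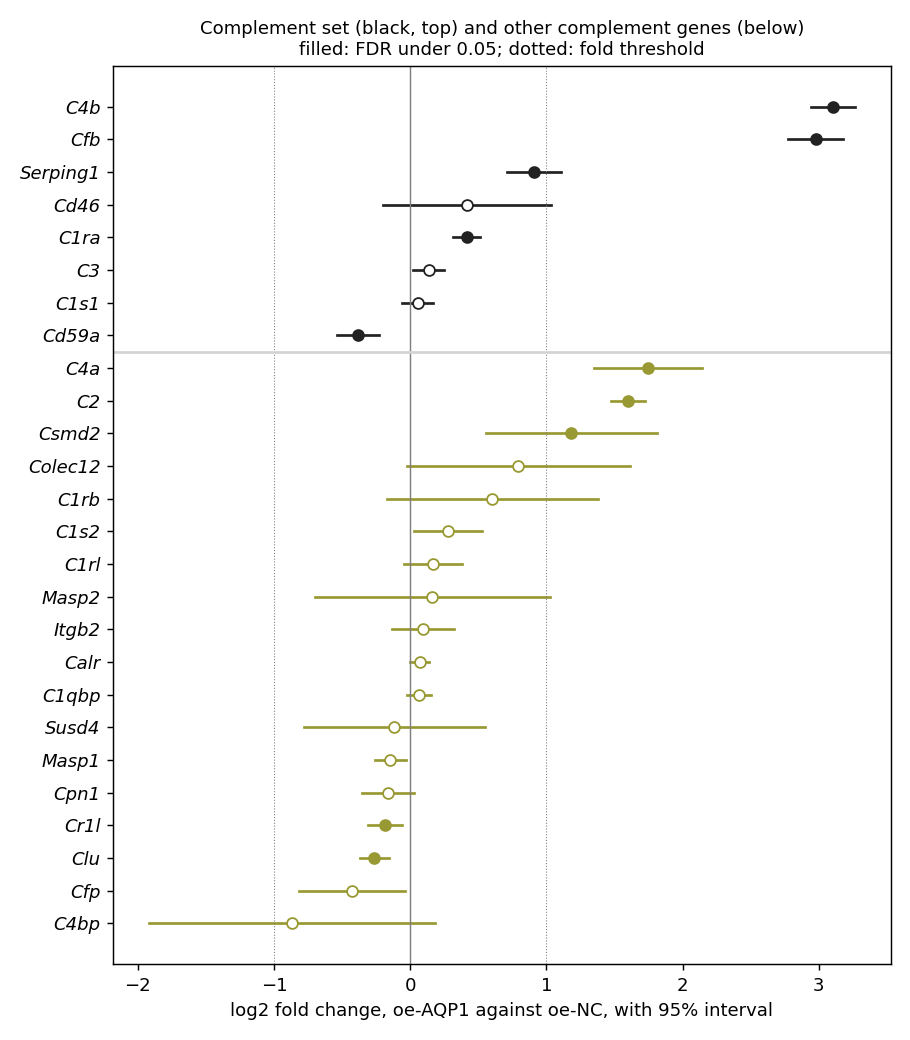
Log2FC on the x axis, one row per gene, with its 95% interval (limma-voom, n = 3 per group) for the 8 tested genes of the complement set (black) and the 18 tested genes of the wider list (olive); filled points have an FDR under 0.05, and dotted lines mark a log2 fold change of 1 in either direction. C4b, Cfb, C4a, C2 and Csmd2 lie beyond the line, and Clu, Cr1l and Cd59a are the genes called lower.

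The strongest increases shared a location, which was noted after the values were seen. C4b, C4a, Cfb and C2 lie in the class III part of the major histocompatibility complex, within 170 kb on chromosome 17 (34947354 to 35117241). Of the 11 tested genes in this interval all 4 complement genes were higher at an FDR under 0.05, as were 16.0% of all genes tested. The interval was drawn from C4b to C2 with their increases known, so this count is a description only. In oe-AQP1 samples C4a held 101 to 119 counts beside 2054 to 2334 of C4b, and its counts were fractional in all 6 samples. A rise of C4a apart from reads of C4b was not tested. The 7 tested genes outside complement ranged in log2FC from -0.24 for Nelfe to 2.74 for Gm66571, with a median of 0.02. Gm66571 was the only one of these 7 that rose (FDR = 0.000791), and it is a noncoding gene on the opposite strand of C4a that shares 1646 exon bases with it, so its reads cannot be told apart from those of C4a without strand. Stk19, Dxo and Skic2, which lie between C4a and Cfb, had log2FC values of 0.02, -0.07 and -0.08 and did not pass the test. C3 lies elsewhere on the same chromosome. On chromosome 6, the 5 tested genes from C1rl to C1s2 are all of complement, and C1ra was the only one that passed.

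**Figure D4:**
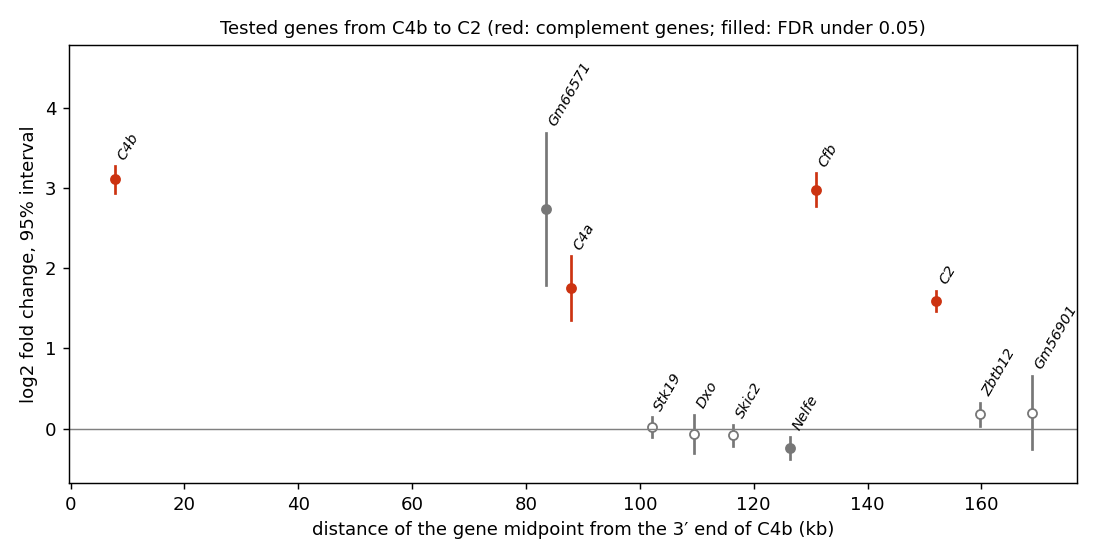
Log2 fold change with 95% interval of the 11 tested genes in the interval from C4b to C2, plotted at the distance of each gene's midpoint from the 3′ end of C4b in kilobases; complement genes are red, other genes grey, and filled points have an FDR under 0.05. The complement genes lie at 1.59 to 3.10, Gm66571 at 2.74 overlaps C4a, and the 6 remaining genes lie between -0.24 and 0.20.

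The genes whose profiles were most like those of C4b and Cfb were found by the root mean square difference between log2 CPM profiles over the 6 samples, each centred on its own mean, among 15266 genes with a mean of at least 10 counts. For C4b these were Ifit1 (0.06, log2FC = 3.02) and Ifi207 (0.11, log2FC = 3.00). For Cfb they were Il18bp (0.08, log2FC = 2.91) and Ifi207 (0.10). Ifit1 and Ifi207 belong to families named for induction by interferon, and Il18bp encodes the decoy receptor of interleukin 18. With 2 groups of 3 samples, such likeness mostly restates a similar fold change.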

How the data were processed

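RNA from 3 oe-AQP1 and 3 oe-NC samples of RENCA cells was analysed. The authors prepared TruSeq RNA libraries and deposited unscaled expected counts for each gene, some of them fractional; their 2 columns of group means were not used. The paper names GRCm39 and no aligner or counter. The submitters' processing notes list fastp, HISAT2, featureCounts, Subread, GRCm38 and mm10, with versions not given in the sources used here. Of 78298 gene identifiers, 78168 were found in GENCODE M39 (GRCm39), the source of positions and lengths. Expected counts were rounded. Genes were kept by edgeR's filterByExpr (15522 genes) and compared by limma-voom with TMM normalization and Benjamini-Hochberg adjustment (limma 3.58.1, edgeR 4.0.16, R 4.3.3). The test, scaling and thresholds follow the paper's methods, and the filter was chosen here. A gene was called at an FDR under 0.05, and the fold threshold was an absolute log2FC above 1. The samples held 18385714.02 to 21920898.67 expected counts, so 3 counts correspond to 0.136 to 0.164 CPM.

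All 9 genes are named, together with genes of the wider list past both thresholds, copies of set genes, Cr1l, the most abundant genes of the wider list, and the 2 nearest profiles of each set gene past both thresholds. The paper's analysis set aside interferon-stimulated and viral defence genes, and no gene was removed for that reason here. The genes and lists were chosen with earlier results of these data known. The positional interval, Nelfe, Gm20547 and single untested genes were chosen after their values were seen. The other settings tried were DESeq2 1.42.0, the quasi-likelihood test of edgeR, sample quality weights, 3 other scalings, 2 other filters, unrounded counts, a block for the sample number, summed copies, longest transcript lengths and leaving out each sample in turn. The limma-voom, edgeR and DESeq2 fits were tested on simulated counts.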

Additional observations from a re-analysis of the deposited data

How the results depend on the processing

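C4b, Cfb, C1ra, Serping1 and Cd59a kept their direction and passed under all 17 alternatives to the test, scaling, filter, rounding, block, copies and samples. Their log2FC ranged from 3.00 to 3.15, 2.89 to 3.05, 0.39 to 0.45, 0.87 to 0.95 and -0.43 to -0.35. C1s1 and Cd46 passed under none (0.03 to 0.09 and 0.12 to 0.66), and Cd46 was at 0.12 without oe-NC sample 1. C3 (0.10 to 0.19) passed under 5: with at least 10 counts in every sample (FDR = 0.0462), library size only (FDR = 0.0449), the replicate block (log2FC = 0.14, FDR = 0.0407), sample quality weights (FDR = 0.00135) and without oe-NC sample 1 (FDR = 6.59e-05). The set therefore had 5 or 6 genes called, and 2 past the fold threshold throughout. The wider list had 8 genes called with sample quality weights, 8 without oe-NC sample 1 and 4 to 8 across the fits that left out 1 sample; the cause was not tested. The genes gained were C1rl, Calr and Masp1 with the weights and without oe-NC sample 1, and C1rb without oe-NC sample 3 (FDR = 0.0373). Masp1 was also gained with edgeR's quasi-likelihood test (FDR = 0.0408), and C7 without the low-count filter. Same-numbered samples of the groups did not deviate together (r = 0.00911, -0.0044 and -0.0677 across genes), no sample matched best with its own number, and the block changed no call in the set other than that of C3. Over all genes, 4825 were called with the block and 5050 without it, and 3601 to 6456 across the fits that left out 1 sample. With longest transcript lengths the ratios of the sums were 1.57 for components and 1.17 for regulators. Depth limited Cd55 and most recognition, terminal and receptor genes.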
